A study of Sus scrofa with 74 samples.

Results

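Fatty acid uptake and oxidation was followed here through 34 genes, listed under 35 names because DCI is the older symbol of ECI1. A gene was taken where the annotation of the array assigns at least 1 probe set to it and to no other gene, a probe set being the group of short oligonucleotides that reads 1 transcript. This held for 30 genes with 42 probe sets, out of 6765 genes and 23999 probe sets without the controls. Probe sets of single assignment were not found for CD36, MLYCD, ACACB and ACAT1, which are named only. The data come from 74 F2 pigs of a cross of the breeds Duroc and Pietrain, with no treatment named in their labels. Their M. longissimus dorsi, a long back muscle, was sampled at slaughter and read on Affymetrix Porcine Genome Arrays, 1 for each animal. These 74 animals form 1 group by their labels, and their running numbers fall into a lower block of 24 animals (numbers 1 to 33) and a higher block of 50 animals (numbers 60 to 114). The sources used here do not say what the numbers stand for, so the blocks were treated as a possible technical batch and everything was also computed within them. Animals of full-sib families are not independent, and family, sex and slaughter date are not in the labels, so the p-values below treat the animals as independent and adjust for none of these.

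A long-chain fatty acid that enters a muscle fibre is carried by a binding protein, coupled to coenzyme A, handed to carnitine at the outer mitochondrial membrane and taken across the inner one. In the matrix it is shortened in repeated turns of 4 reactions, a dehydrogenation, a hydration, a second dehydrogenation and a thiolytic cleavage, and the electrons of the first reaction reach the respiratory chain through the electron transfer flavoprotein and its dehydrogenase. Slow, oxidative fibres depend on this pathway more than the fast, glycolytic fibres that make up most of the longissimus of the pig.

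Values are log2 of intensities scaled to a common level per array, and a level is never set against that of another probe set. The brighter 50% of the probe sets by mean were tested, 11999 in all, and 36 probe sets of 27 member genes were among them. The other 6 member probe sets lay below this limit and were left out of the tests. They are the only ones of CPT2, which frees the fatty acid from carnitine in the matrix, of UCP2, an uncoupling protein of many tissues, and of PPARA, a fatty acid sensing nuclear receptor read by 2 probe sets, together with 2 of the 3 of PPARD. CPT2 ran from 3.01 to 7.06 in the lower block (median 4.48) and from 3.03 to 7.17 in the higher block (median 5.63). Within blocks the standard deviation (SD) of the 36 tested probe sets ran from 0.20 for HADH, the matrix dehydrogenase of shorter chains, to 1.31 for PPARGC1A, a transcriptional coactivator of mitochondrial genes. Their median SD was 0.38, against 0.39 for all tested probe sets. Where a gene had several tested probe sets (6 genes), these ran together within blocks, with r from 0.92 to 0.95 in the lower block and from 0.89 to 0.90 in the higher block for the 3 of HADHB, and from 0.54 to 0.80 and from 0.60 to 0.85 for the 4 of IVD.

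Muscle markers were high throughout, the 7 on the array summing to between 17.69 and 19.07 (log2) in the lower block and between 17.98 and 18.84 in the higher block. The adipocyte marker ADIPOQ varied widely, running from 7.32 to 12.19 in the lower block and from 6.89 to 12.35 in the higher block. In whole muscle, fewer cells of a type and less RNA per cell cannot be told apart. The level of the arrays before scaling was 87.1 ± 14.9 in the lower block and 130.4 ± 20.2 in the higher block (SD). The log2 difference between 3' and 5' probe sets, a measure of RNA quality, was 0.15 ± 0.07 in the lower and 0.20 ± 0.06 in the higher block for GAPDH, and 1.72 ± 0.17 and 1.81 ± 0.18 for actin. Animal 114 stood apart, with the lowest mean z score of the member genes of all 74 animals, 24 of 27 below the mean of its block, and with scores of slow fibre and oxidative phosphorylation genes at -4.91 and -3.85 SD. Its score of glycolysis genes was -2.86 SD. Its array had a mean correlation of 0.88 with the arrays of its block, against a median of 0.93 over all arrays. In the lower block 5 animals (numbers 11, 20, 23, 28 and 29) lay apart from the other 19 on several members, as described with the correlations. Counts are therefore also given without animal 114 and without these 5 animals.

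The first comparison set the lower against the higher block. Of the 36 member probe sets, 20 (14 genes) were lower and 1 was higher in the lower block at an adjusted p below 0.05 (limma, Benjamini-Hochberg over all 11999 probe sets), while over all probe sets 36% were lower and 24.9% were higher. The median difference, lower minus higher block, was -0.40 over the members and -0.06 over all probe sets. Without animal 114 the counts were 22 lower and 1 higher (36.2% and 25.1% over all), and without the 5 animals 21 lower and 3 higher, HSD17B10, DECR1 and PPARD (35.8% and 23.8% over all). With the array level as a covariate the members split into 13 lower and 3 higher (34.1% and 22.8% over all), DECR1 (0.88), ACADM (0.49) and ACSL4 (0.47) being the higher ones. In the values as deposited, where the median difference of all probe sets was -0.65, they split into 35 lower and none higher (83.6% and 2.1% over all). Block and any technical step that differs between the blocks cannot be told apart.

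The largest difference was that of HADHB, the thiolase subunit of the mitochondrial trifunctional protein, which carries out the last reactions on long chains. Its probe set with the largest difference ran from 9.66 to 11.42 in the lower block (median 10.88) and from 11.31 to 13.16 in the higher block (median 12.33). In the lower block 21 of 24 animals lay below every animal of the higher block, and the difference was -1.59 (SE 0.10, limma adjusted p = 6.42e-24). The other probe sets of the gene gave -1.12 and -0.82, so all 3 had the same direction but not the same size. By these, 8 and 7 animals of the lower block lay below every animal of the higher block. HADHA, the partner subunit, whose gene is the neighbour of HADHB in the genome, ran from 11.29 to 12.18 in the lower block (median 11.67) and from 10.89 to 12.26 in the higher block (median 11.56). Its difference of 0.16 (SE 0.08, limma adjusted p = 0.0762) did not pass the test.

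The subunits of the electron transfer flavoprotein also differed from each other. ETFA ran from 10.05 to 12.01 in the lower block (median 11.61) and from 11.09 to 12.67 in the higher block (median 12.17), a difference of -0.67 (SE 0.10, limma adjusted p = 5.8e-08). ETFB ran from 10.73 to 11.96 in the lower block (median 11.23) and from 9.92 to 11.59 in the higher block (median 11.19), and its 0.09 (SE 0.07, limma adjusted p = 0.27) did not pass. ETFDH, the dehydrogenase that takes the electrons on to ubiquinone, was lower by both probe sets (-0.53 and -0.31).

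Among the genes of entry, CPT1B, the muscle form of the carnitine palmitoyltransferase that controls entry into mitochondria, ran from 8.26 to 10.41 in the lower block (median 8.95) and from 8.45 to 11.04 in the higher block (median 9.74). The blocks overlap in most of this range and the difference was -0.74 (SE 0.13, limma adjusted p = 1.3e-06). SLC25A20, the carnitine carrier of the inner membrane, differed by -0.50, and ACSL1 and ACSL3, which couple fatty acids to coenzyme A, by -0.42 and -0.52. FABP3, the fatty acid binding protein of heart and muscle, did not pass (-0.22, limma adjusted p = 0.0767) and passed without animal 114 (-0.26, limma adjusted p = 0.024).

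UCP3, the muscle uncoupling protein, had the second largest difference of the genes, -1.01 (SE 0.20, limma adjusted p = 1.18e-05) by the probe set with the larger difference. It ran from 5.74 to 11.08 in the lower block (median 8.83) and from 8.45 to 11.75 in the higher block (median 10.02). ACADSB, an acyl-CoA dehydrogenase of branched short chains, ran from 9.03 to 10.35 in the lower block (median 9.97) and from 9.89 to 11.11 in the higher block (median 10.74) by the probe set with the larger difference, and differed by -0.71 (SE 0.08, limma adjusted p = 4.43e-13). The only member higher in the lower block was HSD17B10, a matrix dehydrogenase that also serves isoleucine breakdown. It ran from 11.20 to 12.63 in the lower block (median 11.59) and from 10.63 to 11.77 in the higher block (median 11.26), a difference of 0.40 (SE 0.06, limma adjusted p = 1.96e-08).

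The dehydrogenases and the remaining enzymes were mixed. ACADL, for long chains, was lower (-0.50), and so was 1 of the 2 probe sets of ACADVL, for very long chains (-0.34), while ACADM for medium chains (-0.03), ACADS for short chains (0.09), ECHS1, the matrix hydratase (-0.00), HADH (0.06) and DECR1, needed for unsaturated chains (0.05), did not pass. The differences of the thiolases ACAA2 and ACAA1 were -0.41 and -0.43, and those of the 4 probe sets of IVD were -0.52, -0.39, -0.24 and -0.14. In none of the 36 probe sets were the blocks free of overlap, as they were in 0.733% of all tested probe sets. Of 37 tested probe sets of 28 other genes of fatty acid metabolism (fixed list), 22 were lower and 1 was higher in the lower block, with a median of -0.26.

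**Figure D1:**
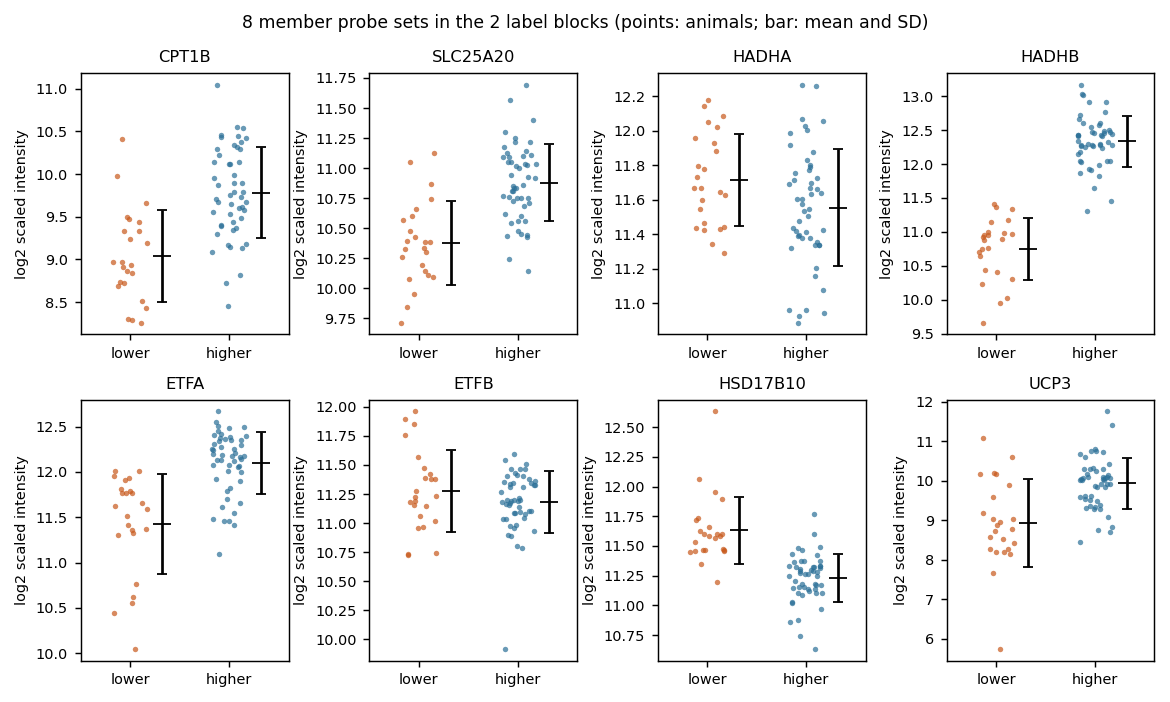
log2 scaled intensity (vertical axis) of 8 member probe sets in the animals of the lower and the higher block, with points for animals and bars for the mean and SD (24 and 50 animals). HADHB is lower in 21 of 24 animals of the lower block than in any of the higher block, while for HADHA the blocks overlap in most of the range.

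The second question was how far the genes of the pathway vary together from animal to animal. Each gene was given 1 value per animal, the mean z score of its tested probe sets within the block, and r was taken within blocks, as a description with no test. Over the 351 pairs of 27 genes the median r was 0.17 in the lower block and 0.21 in the higher block. An r above 0.5 was held by 22.2% of the member pairs in the lower block and 21.9% in the higher block, against 6.10% and 2.22% of the pairs of all tested probe sets. The latter are pairs of single probe sets, whereas a member with several tested probe sets enters as their mean. The highest r was that of ACADM with ETFA in the lower block (0.94) and of FABP3 with ACADVL in the higher block (0.82), and the lowest that of ACAA1 with UCP3 (-0.66) and of ACSL4 with HADH (-0.54).

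ETFDH ran closest to the other members, with an r of 0.82 in the lower block and 0.81 in the higher block with their mean. HADHB, ACAA2, HADHA, ACSL1, ACADVL, CPT1B, ACADSB and ACADS were also above 0.5 in both blocks. ACAA2 is the mitochondrial thiolase of shorter chains. ACAA1, its counterpart of the peroxisome, was at -0.52 in the lower block and 0.00 in the higher block. ACSL3 was below 0 in both blocks (-0.04 and -0.07). ECI1, the isomerase for unsaturated chains, was at 0.03 in the lower block and 0.69 in the higher block, HSD17B10 at -0.07 and 0.65, and HADH at -0.17 and 0.49, and whether these differ between the blocks was not tested.

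**Figure D2:**
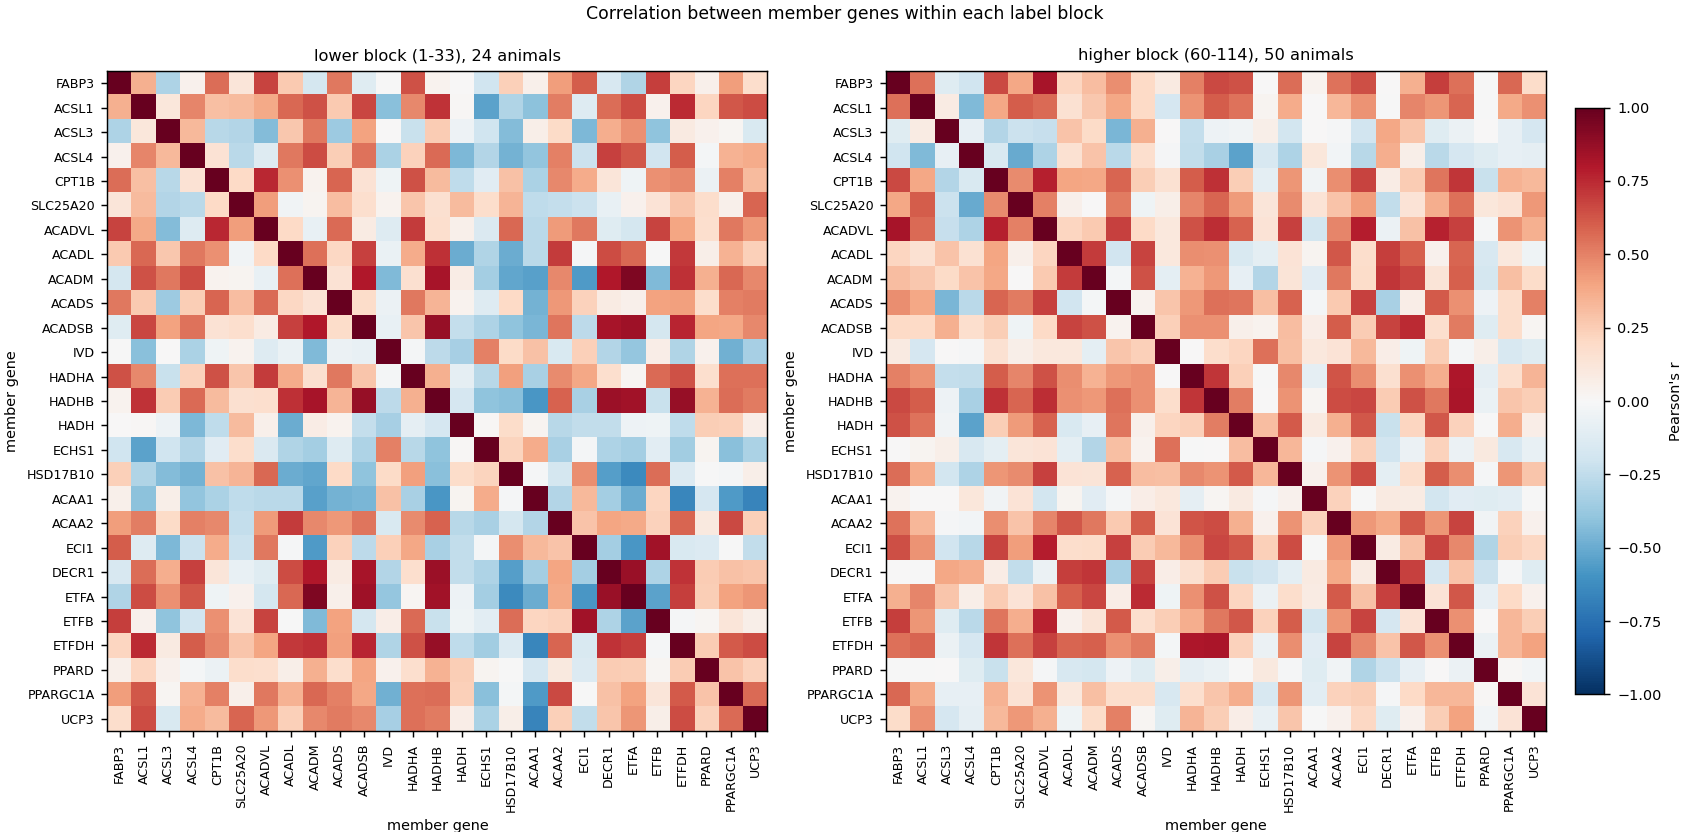
Pearson's r between the 27 member genes (both axes, ordered by role in the pathway) within the lower block of 24 animals on the left and the higher block of 50 animals on the right, from -1 in blue to 1 in red. The median r is 0.17 in the lower and 0.21 in the higher block. ACAA1 and PPARD have no r above 0.40 with another member in either, and ECHS1 only with IVD (0.50 and 0.55).

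The members did not form a single group. In 40 pairs r was above 0.5 in both blocks, and these pairs were searched for sets of genes in which every pair passed this limit, a search made after the values had been seen. Among 5 sets of 4 or more genes the largest held 5 genes, ACADL, ACADM, ACADSB and ETFA with either DECR1 or ETFDH. Another 2 sets held FABP3 and ACADVL with either CPT1B and HADHA or ECI1 and ETFB. Within the first set (with DECR1) r was between 0.55 and 0.94 in the lower block and between 0.60 and 0.75 in the higher block, and within FABP3, ACADVL, ECI1 and ETFB between 0.53 and 0.84 and between 0.65 and 0.82. Between these 2 sets (20 pairs) the median r was -0.18 in the lower block, with 17 pairs below 0, and 0.19 in the higher block, with 3 pairs below 0.

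The level of the arrays before scaling ran with the first set, its r with ACADL, ACADM, ACADSB, DECR1 and ETFA being between 0.58 and 0.65 in the lower block and between 0.37 and 0.61 in the higher block. The r of the array level with FABP3, ACADVL, ECI1 and ETFB was between -0.24 and 0.03 in the lower block and between -0.40 and -0.21 in the higher block. With the array level taken out within blocks, r within the first set was between 0.27 and 0.90 in the lower block and between 0.49 and 0.70 in the higher block, and of the 40 pairs 32 stayed above 0.5 in both blocks.

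In the lower block the first set rests on 5 animals, numbers 11, 20, 23, 28 and 29, which lay below all other 19 animals of the block on ETFA, ACADM, ACADSB, DECR1 and HADHB. On ETFA they ran from -2.51 to -1.21 SD and the other animals from -0.22 to 1.06 SD. On ECI1 they ran from 0.17 to 2.15 SD, inside the range of the others (-1.54 to 2.73 SD). Their arrays had levels of 50.3 to 81.4, against 71.2 to 122.9 in the others, and mean correlations with the arrays of the block of 0.86 to 0.91, against 0.88 to 0.94. On the adipocyte score they ran from -1.14 to 2.30 SD, against -1.98 to 0.98 SD in the others. Without them 12.0% of the member pairs of the lower block were above 0.5, none of the sets with ACADL, ACADM or DECR1 reached 3 genes, and both sets of 4 around FABP3 and ACADVL were found again. The share over pairs of all tested probe sets was not computed without these 5 animals.

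Of 24 pairs of partner subunits and of neighbouring or opposed steps, 16 could be tested, by 100000 two-sided permutations in each block, with p-values adjusted over the 32 tests. In both blocks 5 pairs passed, all positive, and whether r differed between the blocks was not tested. ACADM and ETFA, a dehydrogenase and the subunit of its electron acceptor, had r = 0.94 and rho = 0.86 in the lower block and r = 0.66 and rho = 0.63 in the higher block (permutation p = 1e-05 for each, adjusted p = 5.33e-05 for r and 6.4e-05 for rho), where 1e-05 is the smallest p these permutations can give. Leaving out the 2 animals farthest out on ACADM gave 0.90 and 0.64. ACADVL and HADHA, which act one after the other on long chains at the inner membrane, had r = 0.70 (permutation p = 0.00014, adjusted p = 0.000498) and rho = 0.64 (permutation p = 0.00102, adjusted p = 0.00297) in the lower block. In the higher block r was 0.64 and rho 0.60 (permutation p = 1e-05 for each), and without the farthest animals r was 0.55 in the lower and 0.60 in the higher block. These 2 pairs also passed in both blocks without the 5 animals. ETFA with ETFDH, ACADM with ACADL and ACAA2 with HADHB did not, their r in the lower block then being 0.45, -0.03 and 0.29.

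Partner subunits of a complex were tested in the same way. HADHA and HADHB had r = 0.35 (permutation p = 0.0911, adjusted p = 0.172) and rho = 0.43 (permutation p = 0.0393, adjusted p = 0.0839) in the lower block, and r = 0.71 and rho = 0.75 (permutation p = 1e-05 for each) in the higher block. Without the farthest animals r was 0.47 in the lower and 0.70 in the higher block. Without the 5 animals r in the lower block was 0.53 (adjusted p = 0.0561) and rho 0.56 (adjusted p = 0.0435), and without animals 23, 26, 112 and 114 they were 0.47 (adjusted p = 0.0552) and 0.53 (adjusted p = 0.0251), so that rho passed in both. ETFA and ETFB went opposite ways in the lower block (r = -0.54, permutation p = 0.00684, adjusted p = 0.0156, and rho = -0.55, permutation p = 0.00653, adjusted p = 0.0161). In the higher block the pair did not pass (r = 0.13, permutation p = 0.347, adjusted p = 0.444, and rho = 0.08, permutation p = 0.58, adjusted p = 0.688). Without the 2 farthest animals r was -0.47 in the lower and 0.05 in the higher block, and without the 5 animals r in the lower block was -0.56 (adjusted p = 0.0351) and rho -0.38 (permutation p = 0.114). Without animals 23, 26, 112 and 114 neither measure passed in the lower block (r = -0.43, adjusted p = 0.0891, and rho = -0.45, adjusted p = 0.0669). CPT1B and SLC25A20, neighbouring steps of the carnitine shuttle, passed in the higher block (r = 0.47) and not in the lower block (r = 0.20), where r was 0.65 without the 2 farthest animals. Another 7 pairs passed in neither block, among them ACSL3 with ACSL4, ECI1 with DECR1, ACAA1 with ACAA2 and PPARD with PPARGC1A.

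**Figure D3:**
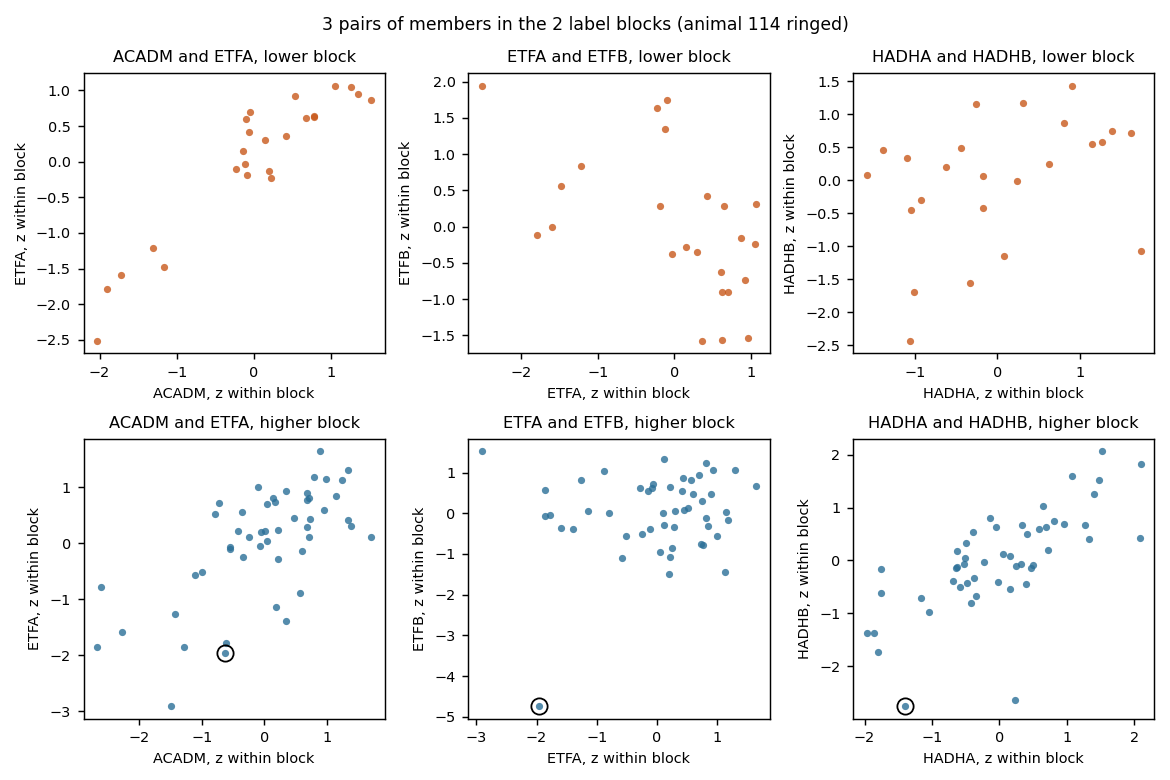
z scores within the block of ACADM and ETFA, ETFA and ETFB, and HADHA and HADHB, 1 point per animal, with the lower block above and the higher block below and animal 114 ringed. ACADM and ETFA rise together in both blocks (r 0.94 and 0.66), with 5 animals set apart in the lower block, while ETFA and ETFB run opposite ways in the lower block (r -0.54).

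The next comparisons asked which other measured features the members follow, each score being the mean z of the genes of a list with no member in it, and each slope being in log2 units per SD of the score with the block in the model. Against a score of 44 oxidative phosphorylation genes (the respiratory chain and ATP synthase), 25 of 36 member probe sets (19 genes) had a positive slope past the test and none a negative one, while over all probe sets 9.54% were positive and 14.5% negative. The median slope was 0.16 over the members and -0.01 over all probe sets. Leaving out animal 114 gave 24, leaving out the 5 animals gave 24, and taking the adipocyte score as a covariate gave 22, with 7.22%, 7.65% and 5.24% positive over all probe sets. The adipocyte score itself ran against the oxidative phosphorylation score, with r of -0.68 in the lower block and -0.37 in the higher block. The higher block alone gave 23 (6.35% over all) and the lower block alone 5 positive and 1 negative, ACAA1 at -0.46 (1.48% and 4.34% over all). No member had a slope that differed between the blocks by the interaction test (limma, smallest adjusted p = 0.301, 6 at an unadjusted p below 0.05), and none of the 11945 probe sets did.

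ACADVL had the strongest relation, with slopes of 0.26 (SE 0.03, limma adjusted p = 8.19e-09) and 0.23 by its 2 probe sets. By the probe set with the larger slope it ran from 9.08 to 10.60 in the lower block (median 9.79) and from 9.01 to 10.86 in the higher block (median 10.11). ETFDH followed with 0.22 (SE 0.03, limma adjusted p = 3.48e-07) and ACAA2 with 0.21 (SE 0.04, limma adjusted p = 4.53e-06). ETFDH ran from 10.48 to 11.78 in the lower block (median 11.27) and from 10.96 to 12.45 in the higher block (median 11.76) by the probe set with the larger slope. ACAA2 ran from 9.49 to 11.02 in the lower block (median 10.17) and from 9.46 to 11.27 in the higher block (median 10.56). The animals thus spanned more than 1 log2 unit of each of these enzymes within a block.

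The 19 genes included members of entry, of the reactions in the matrix and of electron transfer, while CPT2 was not tested. FABP3 (0.25), ACSL1 (0.22), CPT1B (0.24) and SLC25A20 (0.10) stood for entry, ACADM (0.22), ACADS (0.15) and both probe sets of ACADSB (0.16 and 0.14) for the first reaction, and HADHA (0.19), the 3 probe sets of HADHB (0.20 to 0.23), HADH (0.11) and HSD17B10 (0.13) for the later ones. ECI1 (0.17), ETFA (0.20) and ETFB (0.14) passed as well. The largest slopes were those of PPARGC1A (0.73) and UCP3 (0.39 and 0.36), which also had the largest SD.

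Members that did not pass were ACAA1 (-0.17), ACADL (0.13), ACSL3 (-0.04), ACSL4 (-0.03), DECR1 (0.14), ECHS1 (-0.02), PPARD (0.05) and the 4 probe sets of IVD (-0.05 to -0.02). IVD works in leucine breakdown rather than on fatty acids. Of the 37 probe sets of other genes of fatty acid metabolism 10 were positive and 2 negative. Among them were GOT2, the mitochondrial aspartate aminotransferase (0.20, SE 0.02, limma adjusted p = 7.1e-12), PDK4, the kinase that shuts pyruvate dehydrogenase (0.24 and 0.22), ACOT13, an acyl-CoA thioesterase (0.19 and 0.14), and ACSL5 (-0.15) and MCCC2 (-0.15), of which MCCC2 belongs to leucine breakdown.

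**Figure D4:**
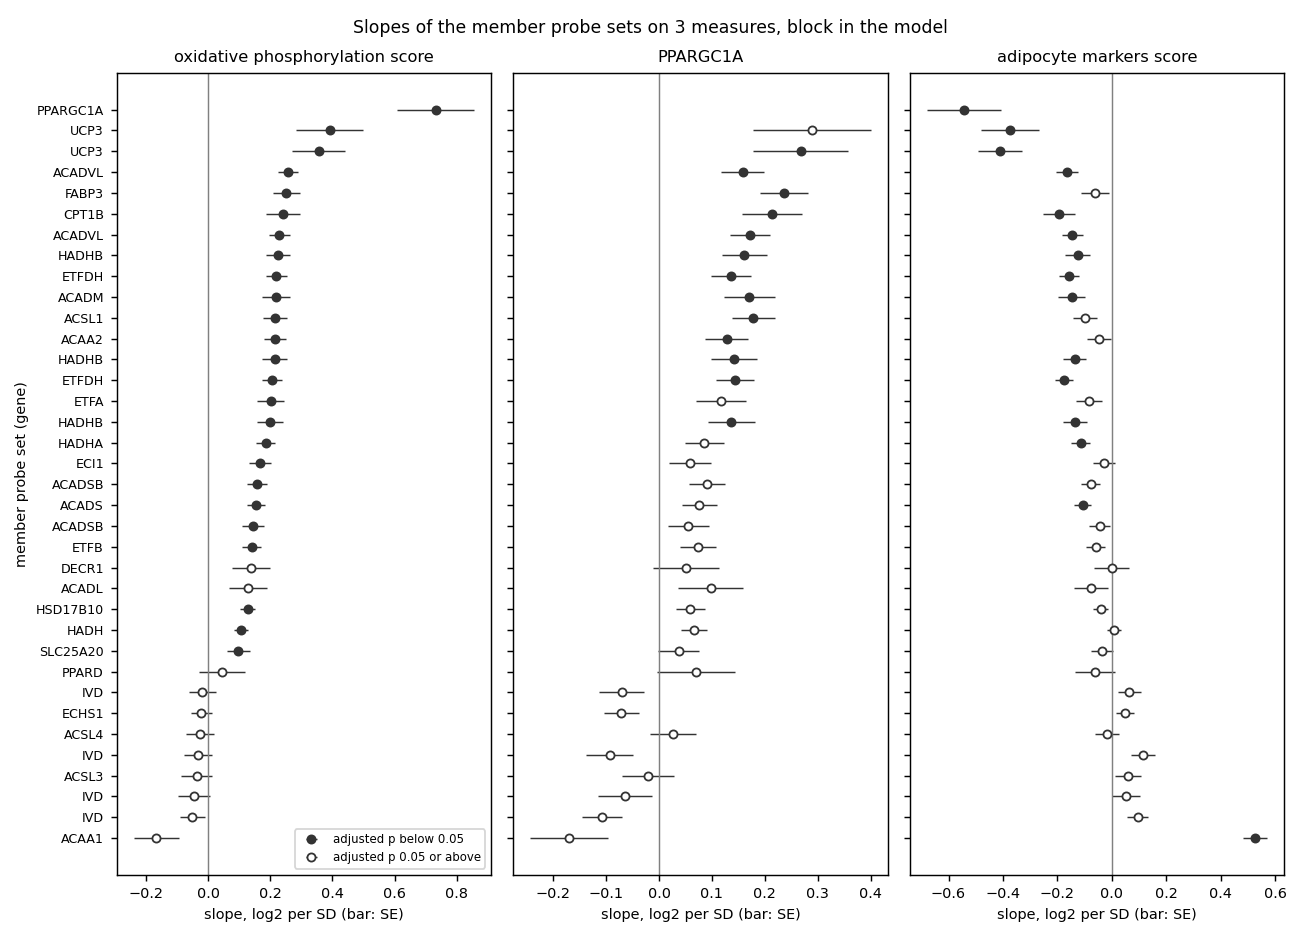
Slopes of the member probe sets (rows, by gene, in the order of the first panel) on the oxidative phosphorylation score, on PPARGC1A and on the adipocyte score, in log2 units per SD with bars for the SE, filled where the adjusted p was below 0.05. In the first panel 25 of 36 are filled and positive, in the second 13 of 35, and in the third 14 are filled and negative and only ACAA1 is filled and positive.

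Regulators were taken as the measure in the same way. PPARGC1A itself varied widely, from 8.11 to 13.14 in the lower block (median 10.93) and from 7.79 to 13.21 in the higher block (median 11.35). On it 13 of 35 member probe sets (9 genes) had a positive slope past the test and none a negative one, while 3.23% were positive and 4.51% negative over all probe sets. FABP3 led with 0.24 (SE 0.04, limma adjusted p = 0.000541), before ACADVL with 0.17 (SE 0.04, limma adjusted p = 0.00252) and ACSL1 with 0.18 (SE 0.04, limma adjusted p = 0.00389), and the others were CPT1B, ACADM, HADHB, ACAA2, ETFDH and 1 probe set of UCP3. FABP3 ran from 12.81 to 14.14 in the lower block (median 13.42) and from 11.92 to 14.35 in the higher block (median 13.64). ACSL1 ran from 11.95 to 13.32 in the lower block (median 12.63) and from 11.92 to 13.76 in the higher block (median 13.03).

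This count, and the share over all probe sets with it, moved when animals were left out or covariates taken in. Without animal 114 it was 5 positive, with 1.34% positive over all probe sets, and 1 negative (IVD, -0.13). Without the 5 animals of the lower block it was 3 (FABP3, ACSL1 and ACADVL), with 1.18% positive over all probe sets. With the adipocyte score as a covariate it was 1 (FABP3, 0.25), with 0.442% positive over all, and with the oxidative phosphorylation score as a covariate 0 (limma, 4 at an unadjusted p below 0.05), with 0.517% positive over all. With the array level as a covariate 16 member probe sets passed, 15 of them positive, and the share over all probe sets is not given here. The lower block alone gave 0 (21 at an unadjusted p below 0.05) and the higher block alone 1 (FABP3, 0.28), with 0.192% and 0.342% positive over all. PPARGC1A ran with the oxidative phosphorylation score (r 0.72 in the lower and 0.50 in the higher block) and against the adipocyte score (-0.60 and -0.31).

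On PPARD, the nuclear receptor of oxidative muscle, none of 35 member probe sets passed the test in limma and none of all probe sets did (0%), with 1 member at an unadjusted p below 0.05. PPARD by its tested probe set ran from 7.52 to 9.93 in the lower block (median 8.27) and from 7.47 to 10.28 in the higher block (median 8.16). PPARA, with both of its probe sets below the limit, was taken as a measure only with all non-control probe sets in the fit. None of the 36 member probe sets then passed in limma (11 at an unadjusted p below 0.05, smallest adjusted p = 0.221), and 0.00417% of all probe sets did.

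Fibre type was read by 9 genes of slow fibres. On this score 9 member probe sets (8 genes) had a positive slope and none a negative one, while 2.5% were positive and 1.22% negative over all probe sets. FABP3 (0.23, SE 0.05, limma adjusted p = 0.00131), ACADVL (0.20, SE 0.04, limma adjusted p = 0.000405) and ETFB (0.16, SE 0.03, limma adjusted p = 0.000597) led, and ECI1, HADH, ACAA2, HSD17B10 and IVD were the others. Without animal 114, which lay at -4.91 SD on this score, only ACADVL passed (0.16), with 0.384% positive over all probe sets. Without the 5 animals of the lower block 7 passed, with 2.05% positive over all probe sets. The relation therefore rests largely on animal 114, in which FABP3 was at -3.45 SD, HADH at -4.02 SD and ETFB at -4.73 SD of its block.

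On the score of 12 adipocyte genes 14 member probe sets (9 genes) had a negative slope and 1 a positive one, while 5.06% were negative and 8.69% positive over all probe sets. The positive one was ACAA1, with 0.53 (SE 0.05, limma adjusted p = 1.2e-15). It ran from 8.31 to 11.03 in the lower block (median 9.30) and from 8.14 to 11.46 in the higher block (median 9.81), and it passed under each of the covariates and without each set of animals left out. UCP3 (-0.41, SE 0.08, limma adjusted p = 0.000192), ETFDH (-0.18, SE 0.03, limma adjusted p = 9.23e-05) and ACADVL (-0.17, SE 0.04, limma adjusted p = 0.00217) led the negative ones, which also held PPARGC1A, CPT1B, ACADM, ACADS, HADHA and HADHB. Without the 5 animals 3 probe sets stayed negative (UCP3 and both of ETFDH), with 1.93% negative over all probe sets. With the oxidative phosphorylation score as a covariate 1 did (UCP3, -0.31), and the share over all probe sets is not given here. This last fall is therefore not read as particular to the members.

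**Figure D5:**
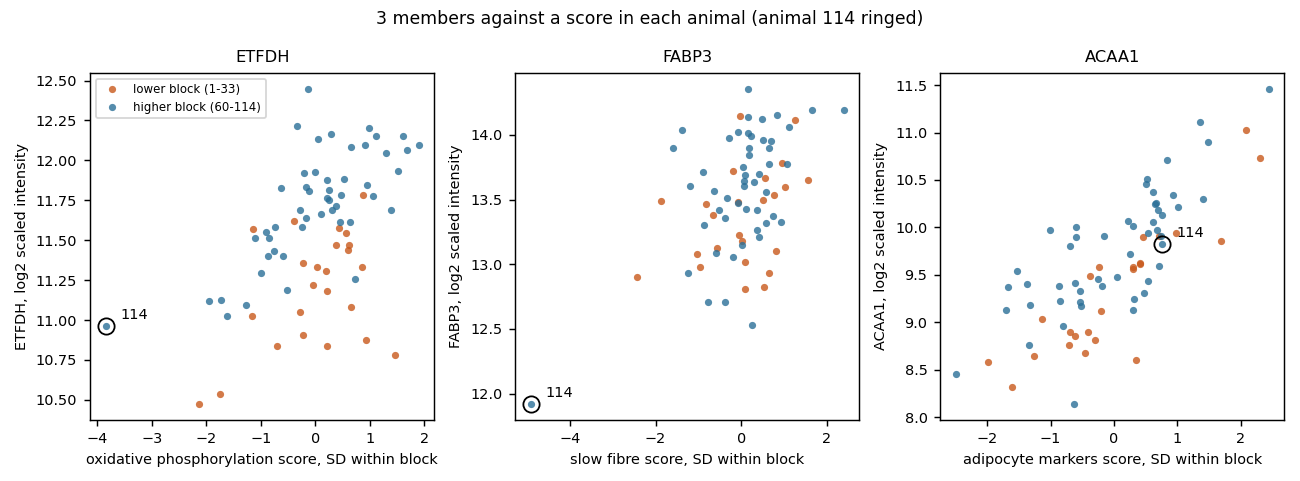
log2 scaled intensity of ETFDH, FABP3 and ACAA1 (vertical axes) against the oxidative phosphorylation, slow fibre and adipocyte score (horizontal axes, SD within the block) in the 74 animals, by block, with animal 114 ringed. ACAA1 rises with the adipocyte score in both blocks, and the relation of FABP3 to the slow fibre score leans on animal 114 at -4.91 SD.

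On the score of 12 glycolytic genes 5 member probe sets were positive and 7 negative, while 20.8% were positive and 23.2% negative over all probe sets, 44% in all, against 12 of 36 members. HADH (0.12), HSD17B10 (0.10) and SLC25A20 (0.13) led the positive ones. ACADL (-0.32, SE 0.05, limma adjusted p = 4.05e-07), DECR1 (-0.30) and ACSL4 (-0.20) led the negative ones. With the array level as a covariate 4 were positive and 2 negative (13.2% and 13.5% over all), and in the values as deposited, where the median slope of all probe sets was 0.13, 21 were positive and none negative, close to the 57.3% and 0.651% of all probe sets. Animal 26 lay at -4.10 SD on the glycolysis score and animal 114 at -2.86 SD. In animal 26 HADH was at -3.22 SD of its block, SLC25A20 at -1.89 SD and HSD17B10 at -0.62 SD. There ACADL was at 2.66 SD, ACSL4 at 1.73 SD and DECR1 at 1.03 SD. The slopes named above may lean on this animal, and they were not fitted without it alone. They were fitted without animals 23, 26, 112 and 114 together. Of the single-member values named over all comparisons, 23 then kept direction and call, and 3 kept direction without passing. These are not split by score here. On the score of 9 endothelial genes 2 of 36 member probe sets were positive, ACAA1 (0.22, limma adjusted p = 0.0358) and ECI1 (0.11, limma adjusted p = 0.038), a share close to the 5.08% of all probe sets, and none negative (5.48% over all). Neither passed without the 5 animals, and ACAA1 did not with the adipocyte score as a covariate (0.04). The slope on this score differed between the blocks in 4 member probe sets, the 3 of HADHB and that of ETFA, while 4.67% of all probe sets were called by this interaction test, and in none of the 4 without the 5 animals. By the same test (limma) no member differed between the blocks in its slope on the slow fibre (0.00834% over all, 2 members at an unadjusted p below 0.05), adipocyte (0.0918%, 4 members) or glycolysis score (0.351%, 6 members).

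Outside the members, the genes that followed their mean z most closely in both blocks were sought among 6351 probe sets of single assignment, as a description. The closest 10 were PDHA1 of pyruvate dehydrogenase (r 0.77 in the lower and 0.78 in the higher block), NNT, the transhydrogenase of the inner membrane (0.76 and 0.76), COX7A1 (0.73 and 0.75), NDUFA4 (0.70 and 0.74), ATP5O (0.76 and 0.69), NDUFS1 (0.67 and 0.81) and 4 loci without a gene symbol of their own, and 4 of the 10 are in the oxidative phosphorylation list. At the other end were CKAP4 by 2 probe sets (-0.61 and -0.61 for the first), RRBP1 (-0.67 and -0.61), CCND2 (-0.63 and -0.59) and SEC61B (-0.72 and -0.57). CKAP4, RRBP1 and SEC61B are proteins of the endoplasmic reticulum. An r above 0.5 in both blocks was held by 51 probe sets and one below -0.5 in both by 18.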

How the data were processed

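The authors hybridised 1 array per animal, analysed the scans with GCOS 1.1.1 (by the submitters' processing notes) and deposited linear intensity values. The authors describe MAS5 for present or absent calls and PLIER for expression levels. Which of these algorithms gave the deposited intensities is not stated in the sources used. They also describe a scaling to a target of 500, while the levels of the deposited arrays were between 50.3 and 183.2. Every column of the table belongs to an animal (0 without one). Intensities were multiplied so that the mean of every array, less 2% of the values at each end, was 500, and log2 was taken after setting values under 1 to 1. Controls (124 probe sets) and the dimmer 50% of the others were left out. Of the 23999 other probe sets, 10069 have 1 gene symbol, 198 several and 13732 none. No depth applies to arrays, and the number of animals limits the precision. Slopes and block differences were fitted with limma 3.58.1 in R 4.3.3, with an adjusted p below 0.05 as the threshold, and checked on simulated arrays. Correlations and permutations used Python 3.11.15 with numpy 2.4.6 and scipy 1.17.1.

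A score is the mean over genes of z scores within the block. Members, lists, pairs and tests were chosen with earlier results of these data known. Full values are given for members on which results turn, up to 5 members of the largest block difference, and up to 3 of each sign in each slope fit. Alternatives were the values as deposited, quantile normalization, log2 of the value plus 16, all non-control probe sets, no block term, either block alone, the brightest probe set of each gene, and the array level or a 3' to 5' ratio of actin or GAPDH as a covariate. Chosen after seeing the data were the exclusions of animals, the adipocyte and the oxidative phosphorylation score as covariates, and the removal of the array level from correlations. Protein and nucleotide sequences were not used here, and no genome build is named in the files.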

Additional observations from a re-analysis of the deposited data

Results flagged for a closer look

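In 4 member probe sets the slope on the endothelial score differed between the blocks (lower minus higher block) by the interaction term in limma, which called 4.67% of all probe sets. The difference was -0.36 (adjusted p = 0.0279), -0.43 (adjusted p = 0.00972) and -0.40 (adjusted p = 0.0162) for the 3 probe sets of HADHB, and -0.40 (adjusted p = 0.0175) for ETFA. In the lower block alone the slopes were -0.27, -0.29, -0.27 and -0.34, all past the test, and in the higher block alone 0.06, 0.10, 0.09 and 0.01, none past it. Without animals 11, 20, 23, 28 and 29, which are the lowest of the lower block on both genes and lie between -0.47 and 1.67 SD on the endothelial score, the differences were -0.17, -0.18, -0.18 and -0.09 and none passed (adjusted p from 0.76 to 0.904). Without animals 23, 26, 112 and 114 the 3 of HADHB passed and ETFA did not (-0.30, adjusted p = 0.135).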

How the results depend on the processing

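Counts of member probe sets past the test moved most with the values as deposited, in which all probe sets shift together with the level of the array (medians of all slopes 0.16 for oxidative phosphorylation, 0.11 for slow fibre, 0.13 for glycolysis and 0.14 for endothelial genes). They were then 35 for the blocks (none higher, 85.7% of all probe sets called), 32 for slow fibre (48.4%), 21 for glycolysis (58%, with slopes of ACADL 0.16, DECR1 0.28 and ACSL4 0.12, all turned in sign), 28 for endothelial genes (71.2%) and 1 for PPARD (12.3%), while the adipocyte score gave 7 positive and 3 negative (37.1% and 0.459%). Median r between members was then 0.49 in the lower and 0.43 in the higher block, and 11 pairs passed in both blocks. Quantile normalization gave 4 for glycolysis, the array level as a covariate 6 for glycolysis and 1 for endothelial genes, the GAPDH ratio 1 and all non-control probe sets 0 for endothelial genes. The lower block alone gave 0 for slow fibre, 6 for oxidative phosphorylation, 4 for glycolysis, 6 for the adipocyte score, 6 for endothelial genes and 0 for PPARGC1A, and the higher block alone 5 for the adipocyte score, 0 for endothelial genes and 1 for PPARGC1A. These use fewer animals. Alternatives chosen after seeing the data moved counts as well. Without animal 114 there were 1 for slow fibre, 4 for endothelial genes and 6 for PPARGC1A, and without animals 23, 26, 112 and 114 there were 1, 4 and 7. Without animals 11, 20, 23, 28 and 29 there were 4 for the adipocyte score, 0 for endothelial genes, 3 for PPARGC1A and 2 pairs. With the oxidative phosphorylation score as a covariate there were 2 for the adipocyte score, 5 for endothelial genes and 0 for PPARGC1A, and with the adipocyte score 1 for PPARGC1A. From quantile normalization on, these counts are given without the share over all probe sets. That share moved between settings too, so the counts alone show no change particular to the members. The other 104 counts and medians stayed within 1.5 times or 1 spread of the main value, and of the values of single members 318 kept direction and call, 47 kept direction without passing and 3 turned (those above). No paired analysis was possible because the animals form 1 group with no shared replicate numbers. Signal near background limits CPT2, PPARA and UCP2.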
